A study of Rattus norvegicus with 14 samples.

Results

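Small intestine of rats perfused for 4 h with a solution labelled HF was compared with intestine perfused with one labelled HG, on arrays of 2 colours that measured both RNAs at once. The comparison uses the arrays that set HG against HF at 4 h (arrays 1 to 5, from pairs 1 to 5) and the arrays that carried the same RNA in both channels (called self-self here: 1HG and 3HG with HG and 3HF with HF), chosen by their titles. With array 6, a second array of pair 2, these are 9 of the 14 arrays of the series. Array 6 served only to check signs and was never counted as a replicate. All 4952 probes were used, which gave 4682 features, 4156 of them genes with a symbol.

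All the rats were 20 days old per the labels, and the labels name neither strain nor sex. The names HG and HF are not spelled out in the labels and are read as high glucose and high fructose, which is known of the study from elsewhere. Every RNA came from perfused intestine, and no array used here held intestine without HG or HF, so more of an RNA under HF and less of it under HG give the same ratio. No label says that the pairs came from separate animals, so a p-value measures the spread between these arrays, which may be technical. RNA came from a whole tissue, where fewer cells of a type and less RNA per cell cannot be told apart. A ratio gives no level, so whether the defining genes of the gut epithelium were present could not be checked.

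Fructose enters the absorptive cells of the small intestine through the facilitated transporter GLUT5, encoded by Slc2a5, while glucose is taken up with sodium by SGLT1, encoded by Slc5a1. Both sugars can leave the cell through GLUT2, encoded by Slc2a2. Inside the cell fructose is phosphorylated by ketohexokinase, encoded by Khk, and split into trioses, which can be burned, turned into lactate or lipid, or built into glucose and released. In rats GLUT5 is scarce until weaning, and fructose in the gut lumen is known to raise it earlier.

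Values are log ratios as deposited, treated as log2, centred on the median of each array and averaged over probes of a gene. A positive value is taken as the HF side. No label or header states the direction, and this reading rests on the dye marks in the title of array 6 and on the known induction of Slc2a5 by fructose, so the direction of Slc2a5 is no separate finding. A difference is the mean of arrays 1 to 5 minus the mean of the self-self arrays, which carry the dye effect of a probe without a difference in RNA. It was tested in a limma fit across all features, with a Benjamini-Hochberg adjusted p below 0.05 as the threshold.

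At this threshold 3 of 4682 features passed (0.0641%). They were Cnga3 and Slc2a5 towards HF (0.0427%) and Entpd2 towards HG (0.0214%). Of all 4682 features, 2269 had a difference above 0 and 2413 below. Without adjustment, 467 features had a p below 0.05 (9.97%), 223 of them towards HF (4.76%) and 244 towards HG (5.21%). For 314 features the 5 arrays at 4 h did not overlap with the 3 self-self arrays (6.71%), 155 of them above (3.31%) and 159 below (3.4%). The standard deviation over probes was 0.36 to 0.40 on arrays 1 to 5, 0.82 on array 6, 0.35 on 3HG, 0.30 on 3HF and 1.39 on 1HG. Array 1HG stands apart: 227 of its probes lie beyond 2 in size. Differences and list medians that move by over 1.5 times without it are given both ways.

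Slc2a5 had the second smallest p in the comparison. Its log ratio was 1.53, 1.62, 1.95, 1.84 and 1.33 on arrays 1 to 5. On the self-self arrays 1HG, 3HG and 3HF it was 0.16, -0.10 and -0.17. All 5 arrays lay far above the self-self arrays, with little spread among pairs. The difference was 1.69 (SE 0.16), a 3.23-fold ratio, with a limma adjusted p of 0.0003965.

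The other sugar carriers did not pass the test. Slc2a2 had a difference of -0.12 (SE 0.17, limma adjusted p = 0.836). It lay below 0 on all 5 arrays, from -0.92 to -0.27, but also on the self-self arrays, from -0.59 to -0.42. A low ratio was thus there also without a difference in RNA. On array 6 Slc2a2 was near 0, at -0.02, against -0.82 on array 2. Slc5a1 had a difference of -0.04 (SE 0.25, limma adjusted p = 0.964), and of 0.03 without 1HG. Of 10 sugar transporters measured, 7 lay above 0 and 3 below, with a median difference of 0.01 (0.07 without 1HG). The only member besides Slc2a5 whose groups did not overlap was Slc5a3, the sodium-coupled myo-inositol carrier, with a difference of -0.41 (limma adjusted p = 0.413). Slc2a4, the insulin-responsive transporter GLUT4, had a difference of 0.52, and its arrays 3 and 5, at 0.31 and 0.27, overlapped with 1HG at 0.32.

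Fructose breakdown enzymes moved little. Khk had values from -0.02 to 0.31 on arrays 1 to 5 and from -0.01 to 0.10 on the self-self arrays, a difference of 0.06 (SE 0.10, limma adjusted p = 0.86). Of 8 enzymes of fructose, polyol and glycerol phosphate metabolism, 6 lay above 0, with a median difference of 0.20 against -0.01 over all features. Gpd1, which turns the triose dihydroxyacetone phosphate into glycerol 3-phosphate, was the member with the smallest p. It read 0.51, 0.58, 0.75, 0.32 and 0.47 on arrays 1 to 5 and 0.15 or less on each self-self array, so that the groups did not overlap. Its difference of 0.46 (SE 0.12) did not pass the test (limma adjusted p = 0.236).

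Genes of glucose synthesis and release lay on the HF side without passing the adjusted threshold. G6pc1 encodes the catalytic subunit of glucose 6-phosphatase, which frees glucose from its phosphate. Its log ratio was 2.50, 2.26, 1.98, 1.54 and 1.11 on arrays 1 to 5, against -0.01, -0.07 and 0.24 on 1HG, 3HG and 3HF. Every array was well above the self-self arrays, yet the values spread more than 2-fold in ratio between pairs. The difference of 1.83 had an SE of 0.49 and a limma adjusted p of 0.244. That SE also draws on the arrays at 20 min, which shared the estimate of the spread in the fit. The standard deviation of G6pc1 was 1.14 there, against 0.56 on arrays 1 to 5 and 0.17 on the self-self arrays.

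Fbp1, the fructose 1,6-bisphosphatase that makes an irreversible step of gluconeogenesis, read 0.58, 1.22, 1.71, 1.12 and 0.90 on arrays 1 to 5. On the self-self arrays it was between -0.11 and 0.00. The lowest array at 4 h still lay clear of them. The difference was 1.15 (SE 0.24, limma adjusted p = 0.164). Slc37a4, which carries glucose 6-phosphate to glucose 6-phosphatase inside the endoplasmic reticulum, read 0.66, 0.77, 0.48, 0.39 and 0.67, against 0.09 or less on the self-self arrays. Its difference of 0.55 (SE 0.11) had a limma adjusted p of 0.148. Gpt, an alanine aminotransferase, had a difference of 0.36, with array 3 at -0.05 inside the self-self range.

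Of the 11 measured genes of gluconeogenesis and glucose release, 8 lay above 0 and 3 below. An unadjusted limma p below 0.05 was found for 5, all on the HF side. Over all features 2269 of 4682 lay above 0, and 4.76% had such a p towards HF. The median difference was 0.27, and 0.31 without 1HG, against -0.01 over all features. The median log ratio of the list was 0.48, 0.37, 0.41, 0.31 and 0.48 on arrays 1 to 5, and -0.07 to 0.01 on the self-self arrays. The list was chosen with earlier results of these data known, so its direction is a description.

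The 250 bases before the RefSeq start of the 4 genes on the HF side that these results turn on are shown for the reader to set beside the values. They come from RefSeq on the rat assembly GRCr8, 5′ to 3′ on the strand of the gene. Capitals mark matches to TATAAA (the TATA box), CCAAT (the CCAAT box) and GTTAAT (part of the site of the liver and gut factor HNF1), on either strand. CACGTG and TGACG, part of the cyclic AMP response element, were searched too and are in none of the 4 windows. No searched motif overlapped another.
Slc2a5 (chr5:165865929-165866178, plus strand): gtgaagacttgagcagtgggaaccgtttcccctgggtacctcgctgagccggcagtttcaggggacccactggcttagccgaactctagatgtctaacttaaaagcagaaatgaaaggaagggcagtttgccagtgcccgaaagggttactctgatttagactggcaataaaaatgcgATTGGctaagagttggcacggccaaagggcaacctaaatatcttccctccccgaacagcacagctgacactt
Cnga3 (chr9:46943103-46943352, plus strand): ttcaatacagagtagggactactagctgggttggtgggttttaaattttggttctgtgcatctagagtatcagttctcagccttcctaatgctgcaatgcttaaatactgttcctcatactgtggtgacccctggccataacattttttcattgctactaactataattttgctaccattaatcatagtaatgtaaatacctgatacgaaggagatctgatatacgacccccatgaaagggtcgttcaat
G6pc1 (chr10:86807409-86807658, plus strand): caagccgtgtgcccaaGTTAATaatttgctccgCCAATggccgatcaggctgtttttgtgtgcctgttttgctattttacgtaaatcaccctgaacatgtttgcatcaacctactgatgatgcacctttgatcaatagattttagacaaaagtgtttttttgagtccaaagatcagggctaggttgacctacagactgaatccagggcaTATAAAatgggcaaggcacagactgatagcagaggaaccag
Fbp1 (chr17:2213457-2213706, plus strand): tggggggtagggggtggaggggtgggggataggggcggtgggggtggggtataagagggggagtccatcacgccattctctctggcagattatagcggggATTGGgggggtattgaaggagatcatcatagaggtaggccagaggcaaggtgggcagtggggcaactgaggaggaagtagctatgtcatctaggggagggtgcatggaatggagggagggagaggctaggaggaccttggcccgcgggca

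The windows shared no motif in all 4. Slc2a5 and Fbp1 each held CCAAT on the minus strand, at -72 and -150 from the start. G6pc1 held GTTAAT at -234, CCAAT at -217 and TATAAA at -41. Cnga3 held none of the 5 motifs. Among 33469 RefSeq promoter windows of this length, 34.0% held CCAAT, 12.9% TATAAA, 6.5% GTTAAT, 5.6% CACGTG and 18.2% TGACG. A match is a description of letters and no measured site.

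Cnga3 had the smallest p and the largest difference of the 3 features that passed. It encodes a subunit of the cyclic nucleotide-gated cation channel known from cone photoreceptors. The log ratio was 1.55, 2.00, 1.90, 1.86 and 2.11 on arrays 1 to 5 and -0.12, -0.31 and -0.04 on 1HG, 3HG and 3HF. The other channels of the kind that were measured did not pass: Cnga1 had a difference of -0.02, Cnga2 -0.35, Cnga4 -0.01 and Cngb1 0.13. Array 2 stood apart in Cnga2, at -1.81 against -0.09 to 0.11 on the other 4, and in Cnga4, at -0.81 against 0.61 to 1.20. The difference of Cnga3 was 2.04 (SE 0.12), a 4.12-fold ratio, with a limma adjusted p of 6.58e-06. It rests on 1 probe. Among 49 genes of cyclic nucleotide and protein kinase A signalling, 17 lay above 0 and 32 below, with a median of -0.02.

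**Figure D1:**
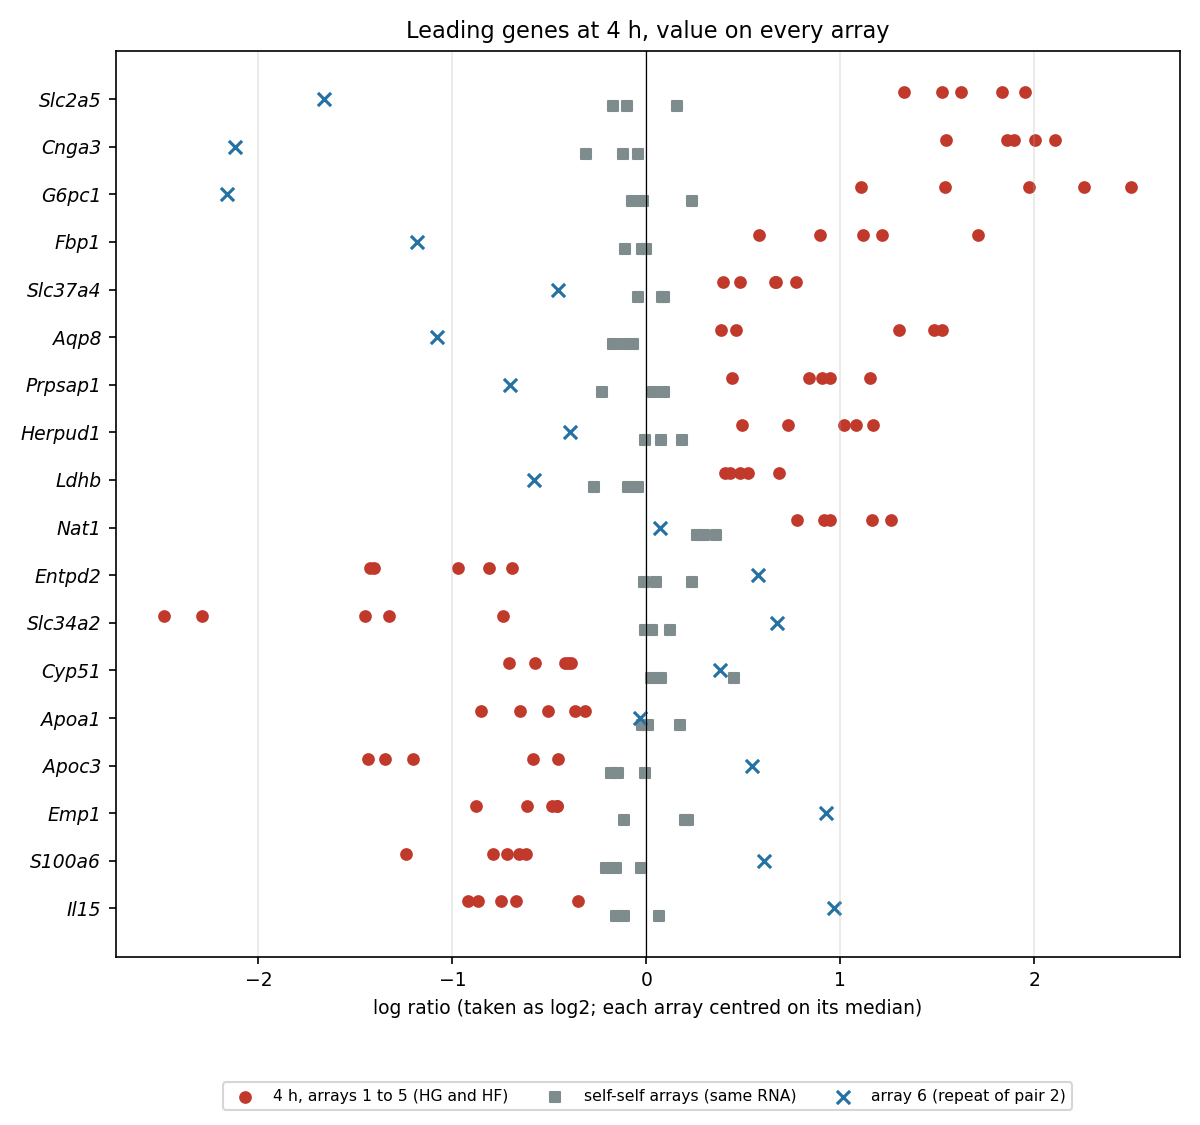
Log ratios (taken as log2) of leading genes on each array: circles are arrays 1 to 5 at 4 h, squares the 3 self-self arrays and crosses array 6, the second array of pair 2. For Cnga3 and Slc2a5 arrays 1 to 5 lie between 1.33 and 2.11 and array 6 lies at -2.12 and -1.66, with the self-self arrays near 0.

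Entpd2 was the only feature on the HG side that passed. It encodes an ectonucleotidase that splits extracellular ATP. Its log ratio was -0.97, -0.81, -0.69, -1.40 and -1.42 on arrays 1 to 5, against 0.05, 0.23 and -0.01 on the self-self arrays. Arrays 4 and 5 were lower than the other 3, and the groups did not overlap. The difference was -1.15 (SE 0.17), a 2.22-fold ratio, with a limma adjusted p of 0.0408. That call is narrow: it passed in 2 of 12 fits that each left out 1 array (those without array 2 and without array 3), and in 9 of 22 alternatives in all, where Cnga3 and Slc2a5 passed in 22 of 22. On the 4 arrays at 20 min the means were -0.13 for Cnga3, -0.32 for Slc2a5 and 0.09 for Entpd2, so none of them lay apart from 0 in the direction seen at 4 h. All 3 were among the 28 features (0.598%) whose ratio differed between 4 h and 20 min at the limma threshold.

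Slc34a2, the sodium-phosphate cotransporter of the gut brush border, had the largest difference on the HG side that did not depend on 1HG. Its log ratio was -1.33, -0.74, -2.49, -2.29 and -1.45 on arrays 1 to 5, and between -0.01 and 0.12 on the self-self arrays. Arrays 3 and 4 were the lowest and array 2 the highest, and none came near the self-self range. The difference of -1.71 (SE 0.34), a 3.26-fold ratio, did not pass (limma adjusted p = 0.131). Of 33 genes of phosphate, calcium and metal transport, 15 lay above 0 and 18 below, with a median of -0.02. Without 1HG these were 11, 22 and -0.08. Slc20a1, a housekeeping phosphate carrier, had a difference of -0.43. Stc2, the secreted glycoprotein stanniocalcin 2, had one of -0.61, and the copper carrier Cp, ceruloplasmin, one of -0.26. None of these passed.

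Water and sodium handling showed few shifts. Aqp8, a water channel of absorptive cells, read 1.30, 1.52, 1.48, 0.38 and 0.46 on arrays 1 to 5 and -0.17 to -0.07 on the self-self arrays. Arrays 1 to 3 were high and arrays 4 and 5 much lower, though all lay above the self-self arrays. The difference of 1.15 (SE 0.31) had a limma adjusted p of 0.256. Aqp3 had a difference of 0.44 and the sodium channel subunit Scnn1a one of 0.27, neither of which passed. Over 45 genes of sodium, chloride, bicarbonate and water transport the median was -0.07, with 17 above 0 and 28 below.

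Glycolysis leaned to the HF side by counts, with 23 of 34 genes above 0, against 2269 of 4682 over all features. An unadjusted limma p below 0.05 was found for 7 genes on that side and 0 on the other. Over all features these shares were 4.76% and 5.21%. No member passed the adjusted limma threshold. The median difference was 0.12. Ldhb, the lactate dehydrogenase chain that favours pyruvate, read 0.41, 0.52, 0.43, 0.49 and 0.69 on arrays 1 to 5, against -0.27 to -0.04 on the self-self arrays, a difference of 0.64 (SE 0.12, limma adjusted p = 0.128). Pfkfb2 and Pfkfb4 set the level of fructose 2,6-bisphosphate, the activator of phosphofructokinase, and had differences of 0.59 and 0.42. Pfkl, the liver chain of phosphofructokinase, had one of 0.51. For each of these 3 the groups did not overlap. The limma adjusted p was 0.214 for Pfkfb2, 0.404 for Pfkfb4 and 0.358 for Pfkl.

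Lipid genes divided. Of 27 genes of lipid absorption and apolipoproteins, 8 lay above 0 and 19 below, with a median of -0.07. All 4 with an unadjusted p below 0.05 lay on the HG side, and none passed the adjusted limma threshold. Over all features 2413 of 4682 lay below 0, and 5.21% had such an unadjusted p towards HG. Apoc3, a component of triglyceride-rich lipoproteins, read -1.43, -0.58, -1.20, -0.46 and -1.35 on arrays 1 to 5, and -0.18 to 0.00 on the self-self arrays. Apoa1, the main protein of high-density lipoprotein, read -0.32, -0.37, -0.65, -0.85 and -0.51, against -0.02 to 0.18. Both sets of arrays were apart, with differences of -0.89 for Apoc3 (limma adjusted p = 0.214) and -0.59 for Apoa1 (limma adjusted p = 0.155). Apoa4 had a difference of -0.26 (limma adjusted p = 0.512) with overlapping arrays.

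Fatty acid oxidation had 17 of 26 genes above 0 and a median of 0.10, with the acyl-CoA dehydrogenases Acadl (0.36), Acadvl (0.31) and Acads (0.24) among its lowest p-values. None of them passed. In cholesterol synthesis 5 of 11 genes lay above 0. Cyp51, the lanosterol demethylase of that pathway, read -0.42, -0.40, -0.71, -0.39 and -0.58 on arrays 1 to 5, against 0.08, 0.45 and 0.02 on the self-self arrays. It was low on all 5 arrays, and 3HG was the array that stood highest. The difference of Cyp51 was -0.68 (SE 0.13, limma adjusted p = 0.128).

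Genes of endoplasmic reticulum stress and of ATF4, the factor that answers amino acid shortage and unfolded protein, had 15 of 17 members above 0, with a median of 0.26. Without 1HG these were 12 of 17 and 0.14, a fall of more than 1.5 times in the median. Herpud1, a part of the machinery that removes misfolded protein from the endoplasmic reticulum, read 0.73, 0.49, 1.17, 1.02 and 1.08 on arrays 1 to 5, and -0.01 to 0.19 on the self-self arrays. The groups were clearly apart, and the difference was 0.81 (SE 0.23, limma adjusted p = 0.275). Trib3, a pseudokinase induced by ATF4, had a difference of 0.55, Dnajc3 one of 0.38 and the chaperone Calr one of 0.34. Ppp1r15a, which helps to dephosphorylate the initiation factor eIF2, lay on the other side at -0.47. None passed the adjusted threshold.

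**Figure D2:**
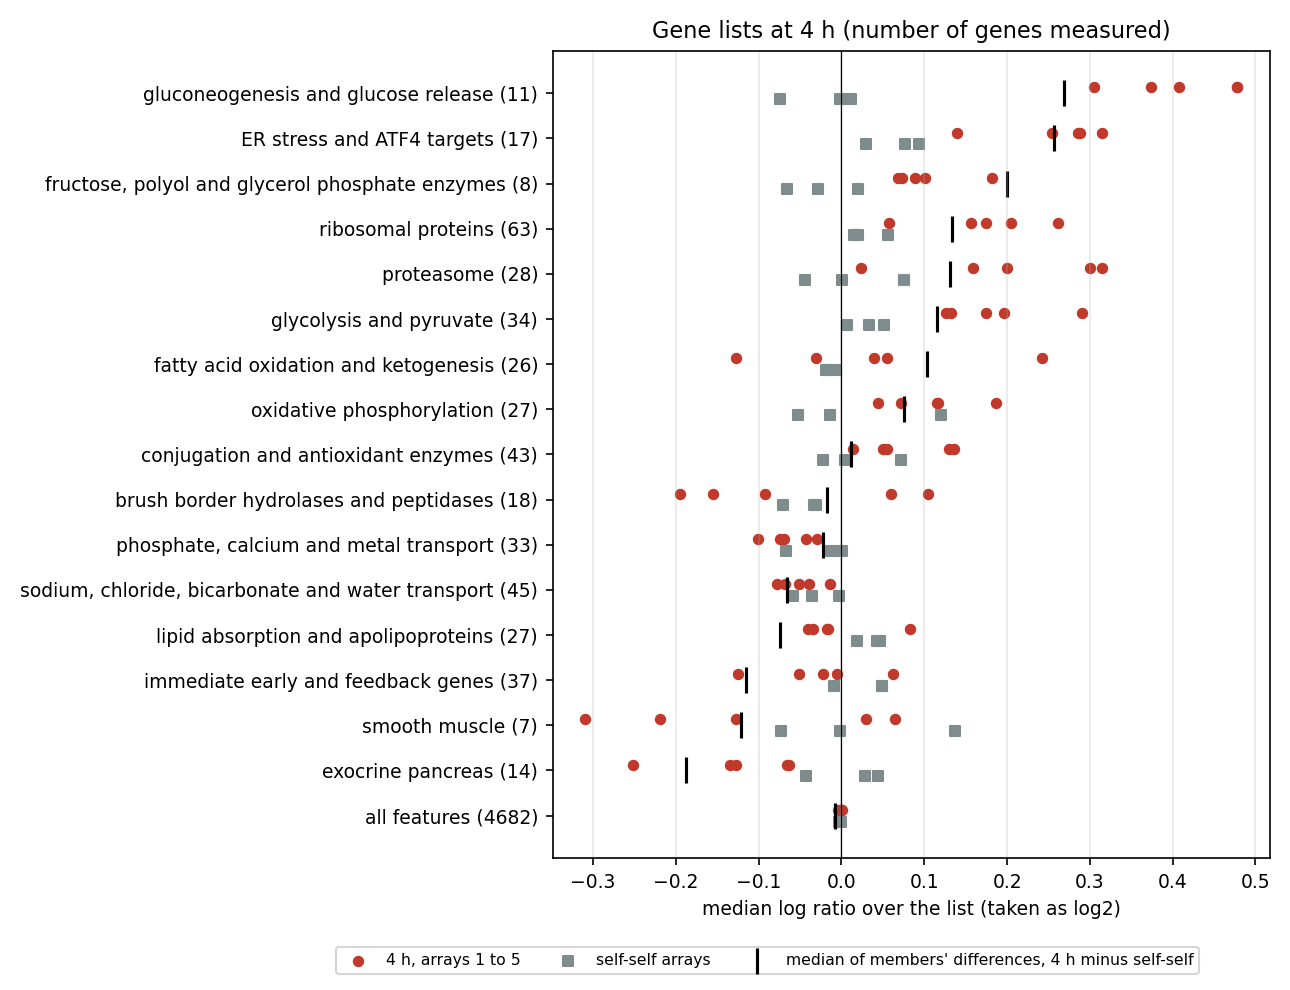
Median log ratio (taken as log2) over each gene list: circles are arrays 1 to 5 at 4 h, squares the 3 self-self arrays, and the black bar is the median of the members' differences, which need not equal the difference of the medians. Arrays 1 to 5 lie at 0.31 to 0.48 for gluconeogenesis and glucose release, above its self-self arrays, and the bar of all features lies at -0.01.

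Protein turnover and synthesis genes lay slightly above 0. Of 28 proteasome genes, 17 lay above 0 (21 without 1HG), with a median of 0.13. Of these 28, 6 had an unadjusted limma p below 0.05 towards HF and 1 towards HG. Among all 4682 features, 4.76% had such a p towards HF and 5.21% towards HG. Psmc4, an ATPase of the regulatory particle, had a difference of 0.68 with 3HG low at -0.93, and of 0.43 without that array. Psmb6, a core subunit, had one of 0.50 with arrays at 0.24 to 0.59. Of 63 ribosomal protein genes, 47 lay above 0, with a median of 0.13. Oxidative phosphorylation had 19 of 27 above 0 and a median of 0.08. No member of these lists passed the adjusted limma threshold.

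Other genes with small p-values towards HF came from varied functions. Prpsap1, an associated protein of phosphoribosyl pyrophosphate synthetase, read 1.15, 0.44, 0.95, 0.90 and 0.84 on arrays 1 to 5 and -0.23 to 0.09 on the self-self arrays. Nat1, an arylamine acetyltransferase, read 0.95, 1.16, 0.78, 0.92 and 1.26, on top of 0.26 to 0.36 on the self-self arrays. In both, all 5 arrays lay above all 3. Differences were 0.89 for Prpsap1 and 0.71 for Nat1, each with a limma adjusted p of 0.128. Gdf10, a secreted member of the TGF-beta family, had a difference of 0.87 with the same adjusted p. The lysosomal nuclease Dnase2 (0.49), the peptidase Apeh (0.49), the neurexophilin Nxph1 (0.43) and the galectin-binding Lgals3bp (0.40) complete the HF side.

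On the HG side the remaining genes with the smallest p-values had differences between -0.84 and -0.47. S100a6, a calcium-binding protein, read -1.24, -0.72, -0.62, -0.79 and -0.66 on arrays 1 to 5, against -0.21 to -0.03 on the self-self arrays. Il15, a cytokine made by epithelial cells, read -0.75, -0.87, -0.92, -0.67 and -0.35, against -0.16 to 0.07. Emp1, an epithelial membrane protein, had values of -0.88 to -0.46. All 3 were low on every array. Differences were -0.68 for S100a6, -0.64 for Il15 and -0.68 for Emp1. The chemokine receptor Ccr7 had one of -0.84, the phosphatase Ptp4a1 -0.57, the G protein subunit Gnaq -0.50, the galectin Lgals7 -0.50 and the adaptor Dab2 -0.47. Both probes of Dab2 lay below 0, at -0.39 and -0.54. The limma adjusted p of these 8 genes lay between 0.155 and 0.214.

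Beyond these genes, lists of other functions lay close to 0, and no member but Entpd2 passed. Of 36 genes of purine nucleotides and ectonucleotidases, 13 lay above 0, with a median of -0.06, among them Prpsap2, the paralogue of Prpsap1, at 0.40 (0.24 without 1HG). Of 43 conjugation and antioxidant enzymes 23 did, with a median of 0.01 (0.03 without 1HG). There Gss, which makes glutathione, had a difference of 0.43 and the superoxide dismutase Sod1 one of 0.48. Of 37 immediate early and feedback genes 14 did, with a median of -0.12 (-0.07 without 1HG). Dusp6, a phosphatase that damps ERK signalling, had a difference of -0.91 and the transcription factor Klf6 one of 0.53.

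The brush border hydrolases and peptidases were even, with 9 of 18 above 0 and a median of -0.02 (-0.01 without 1HG). Si, the sucrase-isomaltase that frees fructose from sucrose, had a difference of 0.24 (SE 0.26, limma adjusted p = 0.785), with array 1 at 1.19 and the other 4 between -0.18 and 0.26. Of 29 carriers of amino acids, peptides, vitamins and nucleosides 15 lay above 0, with a median of 0.05 that was 0.0019 without 1HG and fell below 0 with arrays scaled to one spread. The folate carrier Slc19a1 had the largest difference among them, 0.76 (limma adjusted p = 0.358). Cell cycle genes had 21 of 27 above 0 and a median of 0.04. Junction and cytoskeleton linker genes had 6 of 22 above 0 and a median of -0.06, and heat shock proteins 7 of 20 and -0.13, which became -0.01 without 1HG.

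Several of the largest differences came from array 1HG alone. Pla2g4a, a phospholipase, had the largest difference among features whose groups did not overlap, 4.13, but lay between 0.01 and 0.21 on arrays 1 to 5 and at -11.83 on 1HG. Without 1HG its difference was 0.22. Cpt2, the inner carnitine palmitoyltransferase, had a difference of -3.72 with 1HG at 9.98, and of -0.55 without it. Smad2 (-1.60), Fgfr1 (-1.57) and Vtn (-1.21) became -0.45, -0.37 and -0.17. Ctsb, the lysosomal protease cathepsin B, went from -1.65 to -0.53 with all 5 arrays still between -0.92 and -0.44. None of these 6 genes passed the test with 1HG.

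Array 6 measured pair 2 again, and its values help to separate a difference in RNA from a ratio that belongs to the probe. If its dyes were swapped, as the marks in its title read, a difference in RNA should change sign there and a probe effect should not. Slc2a5 was 1.62 on array 2 and -1.66 on array 6. Cnga3 was 2.00 and -2.12, and G6pc1 was 2.26 and -2.16. These 3 turned at nearly equal size. Fbp1 (1.22 and -1.18), Aqp8 (1.52 and -1.08), Slc37a4 (0.77 and -0.45), Slc34a2 (-0.74 and 0.68) and Entpd2 (-0.81 and 0.57) turned as well.

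Other genes did not turn. Gdf10 was 1.02 on array 2 and 0.99 on array 6. Among the others that kept their sign were Pfkl (0.92 and 0.43), Aqp3 (0.08 and 1.00) and Stc2 (-1.32 and -1.61). Apoa1 was -0.37 and -0.03, and Ccr7 was -0.34 and -0.02. The HG-side differences of Apoa1 and Ccr7 were thus not seen on array 6. By list, array 6 lay above the self-self mean in 1 of 11 genes of gluconeogenesis and glucose release and 6 of 28 of the proteasome. It did so in 6 of 17 of ER stress and ATF4, 28 of 63 ribosomal protein genes, 19 of 34 of glycolysis and 19 of 27 of oxidative phosphorylation. For lists that leaned to HG, it did so in 13 of 27 of lipid absorption and apolipoproteins and 9 of 22 of junction and cytoskeleton linkers. Over all features this was 2333 of 4682.

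Relative to the self-self mean, array 6 was turned against arrays 1 to 5 in 8 of the 12 genes with the smallest p towards HF and in 10 of the 12 towards HG. The exceptions were Gdf10, Nxph1, Lgals3bp and Apeh on the first and Apoa1 and Ccr7 on the second. Over all features 45.2% were turned. Those with an unadjusted p below 0.05 were turned in 116 of 223 cases towards HF and 105 of 244 towards HG, near the share over all features. Array 2 shares its RNAs with array 6, and the self-self mean enters both sides. Of 227 features with a difference of 0.8 or more in size, 21 were turned (9.3%), well below the share over all features. With the self-self median as the baseline, chosen after seeing the data because of 1HG, 46.6% of all features were turned. There 27 features had a difference of 0.8 or more in size, of which 14 turned (51.9%): Cnga3, Slc2a5, G6pc1, Fbp1, Aqp8, Slc19a1, Herpud1 and Prpsap1 towards HF, and Slc34a2, Entpd2, Dusp6, Pmp22, Nrp1 and Apoc3 towards HG. Without array 2 these were 15 of 26.

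**Figure D3:**
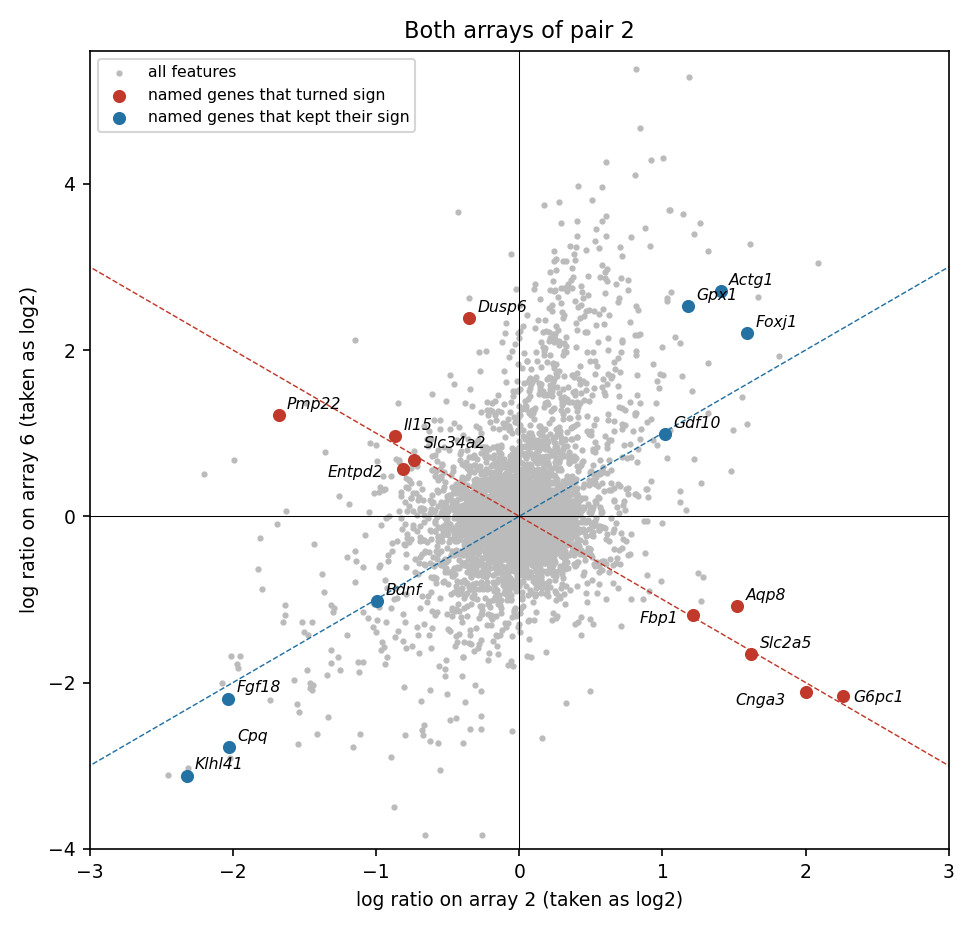
Log ratio (taken as log2) on array 2 against that on array 6, both of pair 2, with no self-self value subtracted: grey points are all 4682 features, red points labelled genes whose sign turned and blue points labelled genes that kept it, labelled after their values were seen. The red dashed line is equal size and opposite sign, near which Slc2a5 (1.62 and -1.66), Cnga3 and G6pc1 lie, and the blue dashed line is equal value, near which Gdf10 lies.

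Most ratios far from 0 were far from 0 on the self-self arrays too. Of 100 genes with a mean over 0.8 in size on arrays 1 to 5, 68 had a self-self mean of the same sign and over 50% of that size, and 66 of these 68 kept their sign on array 6. The largest were Klhl41 (mean of -2.20 at 4 h, -1.29 on the self-self arrays), Rims2 (-2.17 and -1.76), Neurog1 (-2.09 and -1.59), Csap1 (-2.07 and -2.87), Dnajc5 (-2.04 and -2.04) and C4bpb (-2.03 and -1.21). Neurog1 turned on array 6, to 0.51, and the other 5 kept their sign, between -3.83 and -2.36. Of the other 32 large ratios, which did not meet this rule, 13 turned on array 6 and 19 did not. The 13 that turned had self-self means between -0.16 and 0.09. Many of the 19 had a self-self mean of the same sign that fell short of 50%. Examples are Slc6a2 (-1.17 and -0.55), Pemt (0.97 and 0.47) and Bdnf (-0.92 and -0.43). Others of the 19 had a self-self mean near 0, among them Gdf10 (-0.02) and Reg3g (0.04). Tested against a ratio of 0, without the self-self arrays as control, 763 features would have passed.

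Some genes varied widely between pairs. They were chosen after their values were seen, by the standard deviation over arrays 1 to 5, among genes with a self-self standard deviation below 0.3. Reg3g, an antibacterial lectin of the gut epithelium, read -0.40, -1.36, 1.54, 1.66 and 4.84 on arrays 1 to 5. Reg3b, a related lectin, read -0.55, -0.85, 1.26, 1.24 and 3.36. Both were on the HG side in pairs 1 and 2 and on the HF side in pairs 3 to 5, most of all in pair 5. On array 6 they turned, to 0.78 and 1.36. The standard deviation was 2.38 for Reg3g and 1.69 for Reg3b, against a median of 0.21 over all features.

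The inducible heat shock protein Hspa1b ran the other way, at 0.87, 0.99, -0.76, -0.76 and -2.07, with -0.77 on array 6. S100g, the calcium-binding calbindin of enterocytes, was high in pairs 2 and 3 (1.29 and 2.07) and between -0.55 and -0.35 in the others. It read -0.73 on array 6. Of the 10 genes with the largest spread, 9 turned from array 2 to array 6, the exception being Cubn. The mean differences were 1.22 for Reg3g (SE 1.64, limma adjusted p = 0.836) and -0.59 for Hspa1b (SE 0.69, limma adjusted p = 0.8), so no difference between HF and HG was detectable for them over 5 pairs. Without array 5 those of Reg3g and Reg3b were 0.32 and 0.03.

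**Figure D4:**
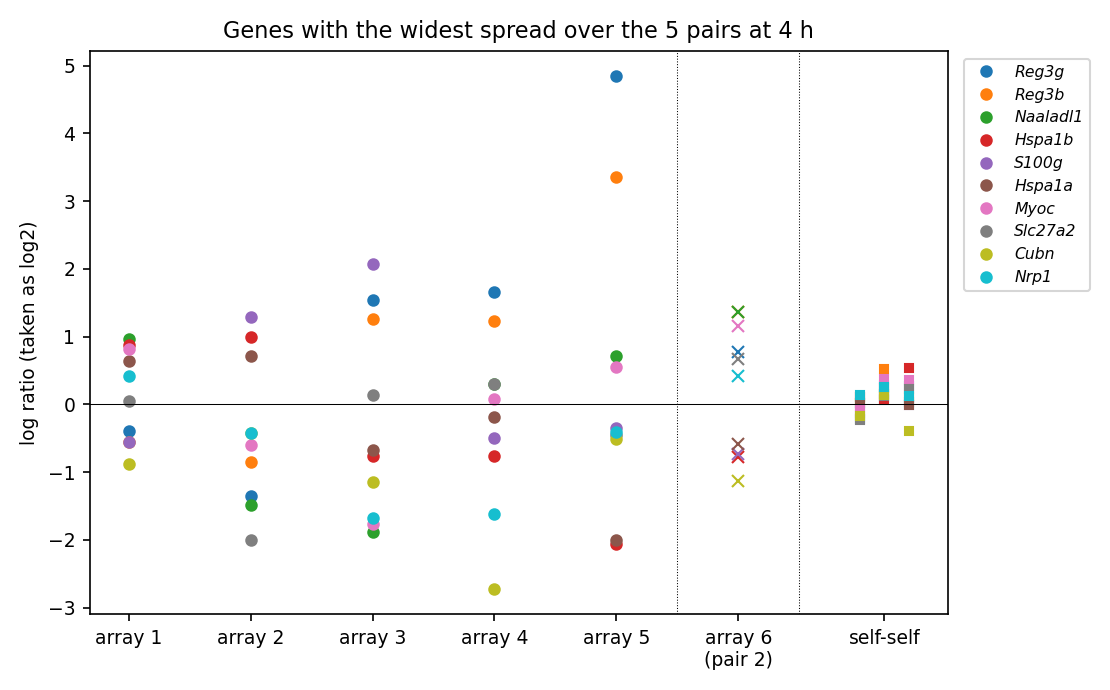
Log ratio (taken as log2) of genes with a large spread between pairs: circles are arrays 1 to 5, crosses array 6, the second array of pair 2, and squares the self-self arrays, with a colour for each of 10 genes. Reg3g runs from -1.36 in pair 2 to 4.84 in pair 5 and Hspa1b from 0.99 to -2.07 in the same pairs.

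Marker lists of cell types had medians between -0.19 and 0.11, and several moved without 1HG. Of 10 enterocyte markers, 5 lay above 0, with a median difference of -0.02 (-0.07 without 1HG). The median log ratio of that list was nonetheless lower on most arrays at 4 h. It was -0.13, -0.25, -0.30, -0.495 and -0.26 on arrays 1 to 5, and -0.02, -0.14 and -0.07 on 1HG, 3HG and 3HF. Array 6 lay above the self-self mean in 6 of the 10, by a median of 0.38 over the list. Paneth (0.11), enteroendocrine (-0.10), immune (0.06) and endothelial markers (-0.10) moved by less than 1.5 times. The median of the 4 goblet markers went from 0.02 to -0.12 without 1HG, that of the 4 crypt markers from 0.04 to 0.16, that of the neural markers from 0.01 to -0.02 and that of the matrix markers from -0.12 to -0.08. Smooth muscle had 2 of 7 above 0 and a median of -0.12 (-0.07 without 1HG), with the contractile protein Cnn1 at -0.71. Exocrine pancreas had 4 of 14 above 0 and a median of -0.19 (-0.12 without 1HG). No marker passed the adjusted threshold. The part of these lists in the results was not tested.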

How the data were processed

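The authors deposited 1 table of log ratios, taken here as log2 values, for 4952 probes, with the medians of the arrays used here between -0.07 and 0.02. No label or header says how the arrays were scanned, corrected for background and normalized, and the base of the logarithm, the centring and the direction stay unknown. Signal intensities were not analysed here, and precision is limited by how few arrays there are. Of the probes 4426 have 1 gene symbol in the platform annotation, 2 have several and 524 none, and 4371 of those probes with a symbol were found in RefSeq on GRCr8 by their Entrez identifier. Each array was centred on its median and the probes of a symbol were averaged (191 genes had several).

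The lmFit and eBayes functions of limma 3.58.1 (R 4.3.3) were fitted to 12 arrays: 5 at 4 h, 3 self-self and 4 that set HG against HF at 20 min, which only shared the estimate of the spread. The fit had 9 residual and 2.84 prior degrees of freedom and was tested on simulated data. Array 6 and an array with labelling primers alone were left out. Alternatives changed centring, scaling, weights, filter, control, averaging and pairing, and left out each array.

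Genes named are, on each side, the 12 with the smallest p, the 6 with the largest difference without overlap, a fixed set, and up to 4 members of each list described. The members and lists were chosen with earlier results of these data known. Genes with a wide spread between pairs, relatives of Cnga3, Ppp1r15a and genes singled out on array 6 were chosen after their values were seen.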

Additional observations from a re-analysis of the deposited data

Results flagged for a closer look

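The ratio at 4 h differed from that at 20 min, in the limma contrast of the 5 arrays at 4 h and the 4 at 20 min, for 13 of the 38 genes named by p, by size or in the fixed set. Over all features 28 passed that contrast (0.598%). On the HF side the 4 h ratio was above the 20 min ratio by 2.02 for Cnga3, 1.97 for Slc2a5, 1.15 for Herpud1, 1.04 for Prpsap1 and 0.63 for Nat1. On the HG side the difference was -1.75 for Slc34a2, -1.15 for Entpd2, -0.83 for Il15, -0.79 for Emp1, -0.73 for S100a6, -0.62 for Cyp51, -0.59 for Gnaq and -0.55 for Dab2. Both contrasts share the arrays at 4 h, so the 4 h to 20 min differences are no separate support for those against the self-self arrays. G6pc1 and Fbp1 did not pass this contrast.

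A single array stood apart from the other 4 at 4 h in 3 genes of 38 tested, where chance flags about 1 group in 20. S100a6 was lowest on array 1, at -1.24. Ctsb was also lowest on array 1, at -0.92. Gnaq was highest on array 3, at -0.26. All 3 genes lay below 0 on every array at 4 h.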

How the results depend on the processing

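Cnga3 and Slc2a5 passed in all 22 alternatives run, while the count of features that passed was 2 to 5 when each array was left out in turn. It was 5 without array 2 of the 4 h arrays, where Prpsap1 and Slc34a2 joined, 4 without 3HF, and 2 without each of 9 other arrays in turn. With the pair number as a random replicate block the count was 3, and this changed no call among the named genes. In that fit an array at 4 h shared a block with the self-self arrays of its pair number, with a within-pair correlation of 0.19. Each array at 20 min was a block of its own. Leaving out 429 features with a self-self standard deviation over 0.5 gave 9 calls, with Fbp1, Gdf10, Nat1, Prpsap1, Cyp51 and Slc34a2 added, and the test against a ratio of 0 gave 763. The list medians of gluconeogenesis, ER stress, glycolysis, fatty acid oxidation, proteasome and ribosomal genes kept their sign in every alternative run. Small differences changed sign. With arrays scaled to one spread and with quantile normalization, Slc2a2 became 0.0564 and 0.0330 and Slc5a1 0.0648 and 0.0766. Leaving out 1 array moved Slc5a1 from -0.15 to 0.0265. Against a ratio of 0, Gpd2 became 0.0290, Insig1 -0.16, Clps 0.0128 and Pnliprp2 -0.0304. Leaving out 1 array moved Gpd2 from -0.61 to 0.0884, Insig1 from -0.51 to 6.16 and Krt18 from -7.85 to 0.0526, each with its reversed value without 1HG. Signal over background was not analysed here, which leaves dim probes among the features. A difference that missed the threshold was not detectable with 5 arrays against 3 at this spread.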
